A study of Mus musculus with 18 samples.

Results

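The comparison set 12 weeks against 6 weeks of a cuprizone experiment over both genotypes, and it used 18 of the 18 arrays of the series. RNA came from the caudal part of the corpus callosum, the fibre tract that joins the hemispheres of the brain, of C57BL/6 mice, and each sample was measured on 1 array. In all 4 groups the mice ate 0.2% cuprizone (CPZ), a copper-binding compound that is toxic to oligodendrocytes and so removes myelin. Arrays were chosen by the stage and genotype of the sample names: wild type mice (WT) gave 4 arrays of 6 weeks and 5 of 12 weeks, and mice with a knockout of Trem2 (KO) gave 3 and 6. No group without CPZ was analysed here, so a difference between stages is not a difference from normally fed tissue. The labels do not settle what a stage is: sample descriptions give it as the age of the mice, while the treatment protocol gives mice within an age range and several feeding times. Stage was therefore used only as the name of the groups. Whether every array came from its own mouse is not stated, and p-values therefore cover only the spread between these samples, some of which may be technical. The labels do not give an array run or an extraction day, so stage and such a batch cannot be told apart. The number of arrays limits the precision.

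Oligodendrocytes wrap axons in myelin, a stack of membrane rich in a few proteins and in galactolipids. CPZ kills these cells, microglia and macrophages clear the debris, and precursor cells divide and form new oligodendrocytes, first in the presence of the drug and more fully after it is withdrawn. Type I interferon and chemokine genes are among the genes that glia switch on in such lesions. Trem2 encodes a receptor of microglia for lipids and debris, and its loss is known to hold back that microglial response. In bulk tissue fewer cells of a type and less RNA per cell cannot be told apart.

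Values are log2 signals of probe sets summarised to genes, and 16281 genes were tested in 1 limma model with stage and genotype as terms and no interaction. A gene passed where its Benjamini-Hochberg adjusted p over all genes was under 0.05. Differences are log2 levels at 12 weeks minus levels at 6 weeks, so a value below 0 means a lower signal at 12 weeks, and they are given with the standard error (SE) of the model. Trem2 checked the genotype labels. Its log2 level was 6.44 to 8.43 in the 9 WT arrays and 4.79 to 6.05 in the 9 KO arrays, so the genotypes did not overlap, and its pooled stage difference was -0.22 ± 0.23 (SE, adjusted p = 0.763). Tissue markers differed between single arrays. The WT arrays 3 and 4 and the KO array 2 of 6 weeks had the lowest scores of the neuron list, at -0.48, -0.91 and -1.43, and WT array 4 of 6 weeks had the highest score of the choroid plexus list, at 3.11. A list score is the mean over the members of log2 levels centred on each gene's mean over the 18 arrays. These arrays are named again beside the results they touch.

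Across both genotypes 2 of the 16281 genes passed, which is 0.0123% of them, and both were lower at 12 weeks: Tgfa and St18. No gene was higher at 12 weeks past the threshold (0%). At an unadjusted p under 0.05 there were 1029 genes with a higher level at 12 weeks (6.32%) and 791 with a lower one (4.86%), in all 1820 (11.2%). Of all genes tested 52% had a higher mean at 12 weeks and 48% a lower one. The median difference of all genes tested was 0.01, and the median SE was 0.17.

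Tgfa encodes transforming growth factor alpha, a membrane-bound ligand of the epidermal growth factor receptor. At 6 weeks its log2 level was 6.63, 6.22, 6.67 and 6.25 in the 4 WT arrays and 6.76, 6.67 and 6.53 in the 3 KO arrays. At 12 weeks it was 5.31, 5.70, 5.54, 5.82 and 5.77 in the 5 WT arrays and 5.86, 5.94, 5.62, 5.78, 5.97 and 5.66 in the 6 KO arrays. The highest array of 12 weeks lay under the lowest array of 6 weeks, and the same held within each genotype. Tgfa fell by 0.83 on the log2 scale (SE 0.11, adjusted p = 0.00659 in limma), a 1.78-fold lower signal. The difference was -0.82 ± 0.16 in WT and -0.85 ± 0.17 in KO, and the interaction, KO minus WT, was -0.03 ± 0.23 (adjusted p = 0.998). Tgfa rests on 7 probe sets with differences from -1.15 to 0.29. Of these 6 were lower at 12 weeks in both genotypes and 1 was not. The probe sets differed between genotypes: the brightest had -0.04 in WT and -0.62 in KO, and the next -1.08 and -0.23. With the brightest probe set standing for the gene the pooled difference was -0.315. Tgfa did not pass with the mean of the probe sets or the brightest one standing for the gene, or with tissue scores as covariates. It also did not pass with replicate number as a block or with the 12-week arrays of either stretch of accessions alone. It passed under 29 of the 35 settings run, with an adjusted p in limma from 0.00461 to 0.315.

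St18 encodes a zinc finger transcription factor of the MYT1 family. At 6 weeks its log2 level was 6.05, 6.32, 6.71 and 7.24 in the WT arrays and 6.51, 6.78 and 6.08 in the KO arrays. At 12 weeks it was 4.44, 4.75, 5.23, 5.52 and 4.92 in the WT arrays and 5.33, 5.77, 5.78, 4.60, 5.77 and 5.17 in the KO arrays. Stages did not overlap over the 18 arrays. St18 fell by 1.35 on the log2 scale (SE 0.21, adjusted p = 0.0207 in limma), a 2.55-fold lower signal. In WT the difference was -1.61 ± 0.28 and in KO -1.06 ± 0.30, with an interaction of 0.56 ± 0.41 (adjusted p = 0.963). All 25 probe sets of St18 were lower at 12 weeks, 22 of them in both genotypes, with differences from -2.52 to -0.14. It passed under 24 of the 35 settings, with an adjusted p in limma from 0.00657 to 0.171. It was lost with array weights, with replicate number as a block, with tissue scores and with either stretch alone. It was also lost without both WT array 4 and KO array 2 of 6 weeks. With 1 array left out, it was lost without WT array 2, WT array 3 or KO array 2 of 6 weeks. The same held without WT array 2 or 5 of 12 weeks. WT arrays 3 and 4 of 6 weeks, which also had the highest myelin scores of their group, held the highest St18 levels of WT.

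**Figure D1:**
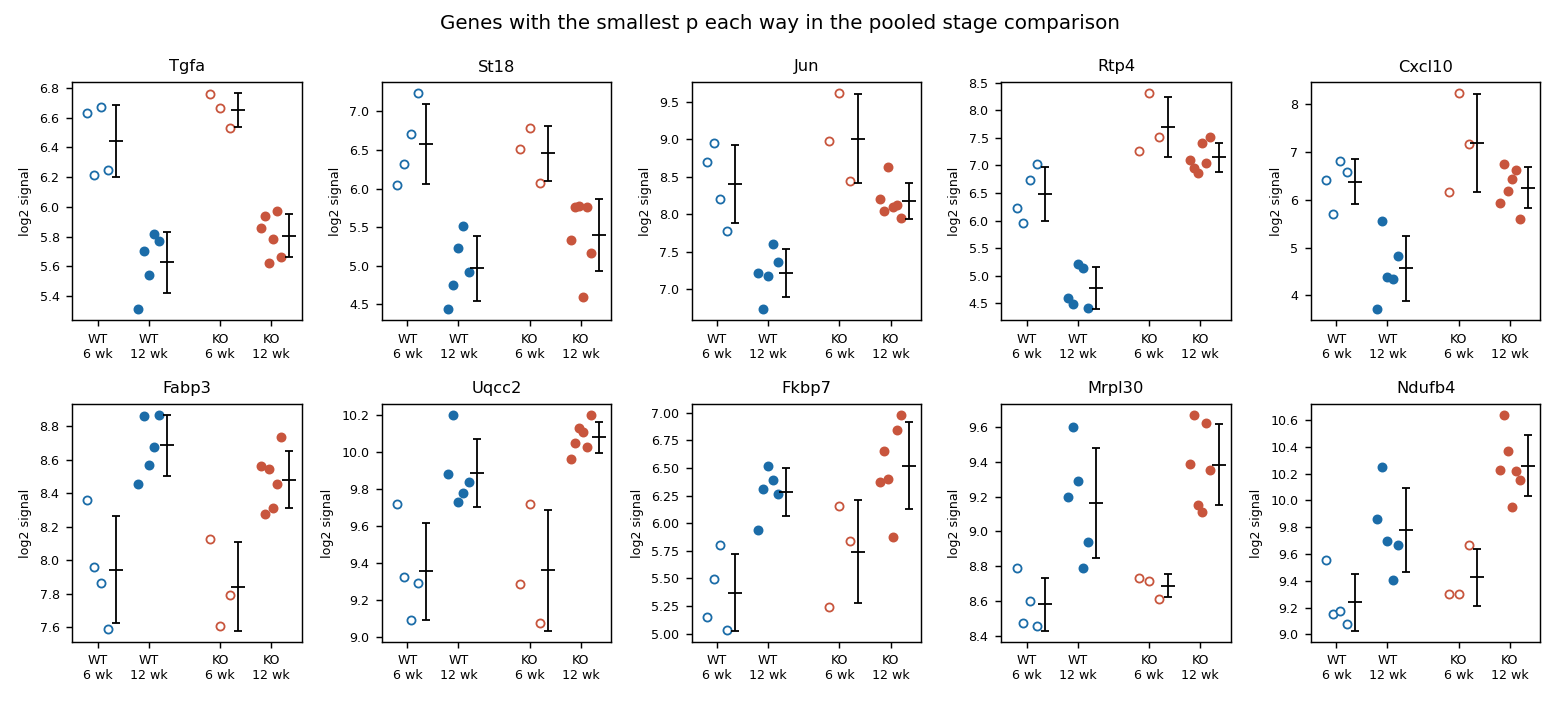
Log2 signal (y axis) of the 5 genes with the smallest p in each direction, by group (x axis), with 1 point per array, open at 6 weeks and filled at 12 weeks, and bars for the group mean and SD. For Tgfa and St18, in the first panels, no array of 12 weeks reached the level of an array of 6 weeks; Rtp4 and Cxcl10 of the KO arrays of 12 weeks lay above the WT arrays of 12 weeks.

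The next smallest p values belonged to genes that did not pass. Jun, a subunit of the AP-1 transcription factor, had a log2 level with a low, median and high of 7.78, 8.69 and 9.61 at 6 weeks and 6.74, 7.94 and 8.63 at 12 weeks. Its stages did not overlap in WT and overlapped in KO, where array 3 of 12 weeks (8.63) stood over KO array 3 of 6 weeks (8.44). The pooled difference of Jun was -1.02 ± 0.19 (adjusted p = 0.0828), with -1.18 in WT and -0.84 in KO. Zfp36, which encodes a protein that speeds decay of inflammatory mRNA, had a difference of -0.93 ± 0.17 (adjusted p = 0.0914) and rests on 2 probe sets. Rtp4, an interferon-induced chaperone of membrane receptors, had -1.16 ± 0.22 (adjusted p = 0.1) and Cxcl10, an interferon-induced chemokine, -1.40 ± 0.29 (adjusted p = 0.107).

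On the other side Fabp3, a fatty acid binding protein, led with a pooled difference of 0.69 ± 0.13 (adjusted p = 0.0828). Its log2 level was 7.59 to 8.36 in the 7 arrays of 6 weeks, with a median of 7.87, and 8.28 to 8.87 in the 11 arrays of 12 weeks, with a median of 8.56. Stages did not overlap within either genotype, since the array that reached 8.36 was a WT array and the one at 8.28 a KO array. Uqcc2, an assembly factor of respiratory complex III, went from a median of 9.29 (9.08 to 9.72) to 10.03 (9.73 to 10.20), a difference of 0.62 ± 0.12 (adjusted p = 0.107). Mrpl30, a protein of the large mitochondrial ribosomal subunit, went from 8.61 (8.46 to 8.79) to 9.29 (8.79 to 9.67), a difference of 0.64 ± 0.13 (adjusted p = 0.107). The stages of both genes did not overlap over all 18 arrays, though for Mrpl30 the margin was smaller than the rounding. Ndufb4, a subunit of respiratory complex I, had a difference of 0.68 ± 0.14 and Fkbp7, a prolyl isomerase of the endoplasmic reticulum, 0.85 ± 0.17 (adjusted p = 0.107 for each). Their stages overlapped in at least 1 genotype.

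A description without a test asks for genes whose arrays of 12 weeks all lay on one side of all arrays of 6 weeks in WT and again in KO. It was made after the values were seen. It held for 9 genes lower at 12 weeks (0.0553% of the genes tested) and for 6 genes higher (0.0369%). Over the 7 and 11 arrays together, whatever their genotype, it held for 4 lower genes, Tgfa, St18, 1700018F24Rik and Fth1 (0.0246%), and for 4 higher ones, Uqcc2, Mrpl30, Anxa1 and Hdgfl3 (0.0246%). The lower ones, after Tgfa and St18, were Ubr2, a ubiquitin ligase (-0.54 ± 0.12), Arid1a, a subunit of the SWI/SNF remodelling complex (-0.58 ± 0.14), Abca2, a lipid transporter abundant in oligodendrocytes (-0.70 ± 0.17), Nf1, the Ras regulator neurofibromin (-0.29 ± 0.11), Fth1, the heavy chain of ferritin (-0.22 ± 0.10), and 2 named only as Gm1966 (-0.74 ± 0.20) and 1700018F24Rik (-0.41 ± 0.12). The higher ones, after Fabp3, Uqcc2 and Mrpl30, were Anxa1, an anti-inflammatory annexin (1.21 ± 0.25), Hdgfl3 (0.46 ± 0.12) and the nuclear import receptor Ipo7 (0.30 ± 0.11). Their adjusted p ran from 0.107 for Anxa1 to 0.387 for Fth1, and only Tgfa and St18 passed. Fth1 shows how small such a shift could be: its log2 level was 12.13 to 12.50 at 6 weeks and 11.90 to 12.11 at 12 weeks. Anxa1 was dim at 6 weeks, at 3.02 to 3.87 against 3.91 to 6.13 at 12 weeks, close to the filter level of 3.41.

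WT and KO arrays are separate, so each genotype gave its own stage difference from its own arrays. Over the 16281 genes the stage differences of WT and KO had a Pearson r of 0.23 and a Spearman rho of 0.20, across genes, which are not independent replicates. Signs were opposite for 42.7% of all genes and matched for 57.3% of them, for 70.6% of the genes at an unadjusted p under 0.05 in WT and for 65.3% of those in KO. An unadjusted p under 0.05 in both genotypes with the same sign was reached by 133 genes (0.817%), of which 60 were lower and 73 higher at 12 weeks, and with opposite signs by 24 genes (0.147%). The count of 133 was 92 to 191 when 1 array was left out in turn. Of the 133 genes only Tgfa and St18 passed the pooled test.

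**Figure D2:**
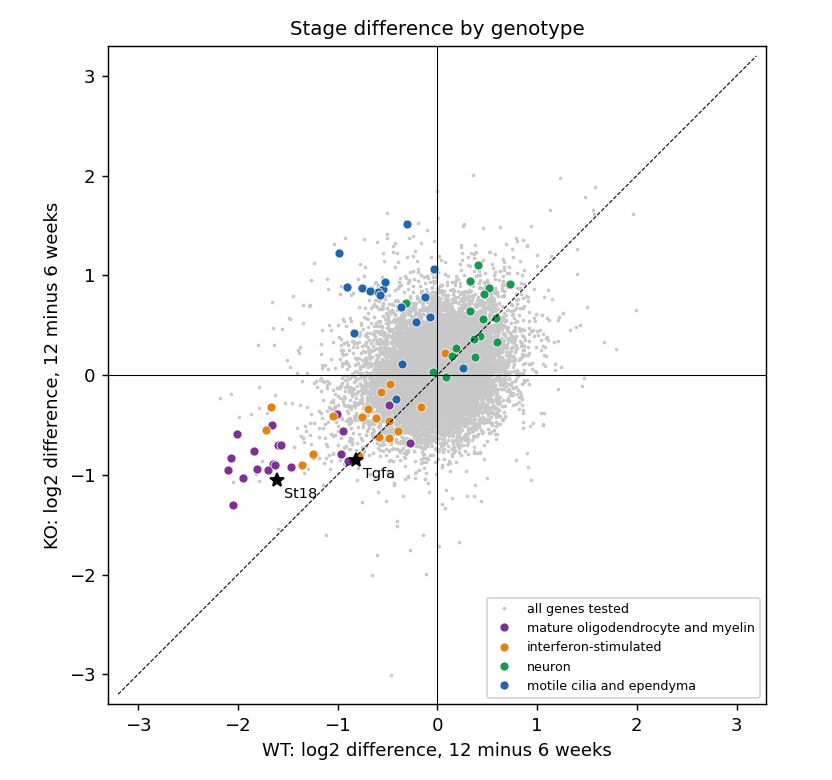
Stage difference in WT (x axis) against that in KO (y axis), both as log2 at 12 minus 6 weeks, with 1 grey point for each of the 16281 genes, 4 gene lists in colour and a dashed line where both are equal. Tgfa lies on the line at -0.82 and -0.85, St18 and the myelin genes lie lower in WT than in KO, and the motile cilia genes lie mostly at negative values in WT and positive ones in KO.

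Examples from the 60 genes lower in both genotypes were picked after their values were seen, and apart from Gpr17 and Oas1a they stand in none of the gene lists. Erbb3, a neuregulin receptor, had a median log2 level of 5.33 (4.49 to 6.56) at 6 weeks and 4.51 (3.42 to 4.97) at 12 weeks, a pooled difference of -1.13 (-1.30 in WT, -0.94 in KO). Kif13b, a kinesin motor, had -1.12 (-1.14 and -1.10) and Plekhh1 -1.27 (-1.63 and -0.86). Dock10, an exchange factor for small GTPases, had -0.93 (-1.05 and -0.79). The secreted protein gene Lgi3 had -1.01 (-1.14 and -0.88), and Nfasc, which encodes the node and paranode protein neurofascin, -0.56 (-0.55 and -0.57). Gpr17, a receptor of cells committed to become oligodendrocytes, had a median of 6.70 (6.37 to 7.86) at 6 weeks and of 6.00 (5.50 to 6.97) at 12 weeks, a difference of -0.75 (-0.81 and -0.68). Adjusted p of these 7 genes ran from 0.14 for Kif13b to 0.238 for Nfasc. Examples known as interferon-induced were Oas1a (-1.15), Mx2 (-1.004), Gbp5 (-0.92), Ifi206 (-0.92) and Rnf213 (-0.63), with adjusted p from 0.167 to 0.17. Of these Mx2, Gbp5 and Ifi206 were dim at 12 weeks. Their mean log2 levels there were 3.52, 3.965 and 3.18, close to the filter level of 3.41.

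Examples from the 73 genes higher in both genotypes were again picked after their values were seen. Among those with mitochondrial proteins were Uqcc2, Mrpl30, Ndufb4, Ndufv2 of complex I (0.52), Atp5md of the ATP synthase (0.77), Timm8b of the import machinery (0.59), Mrps33 (0.56), Chchd1 (0.59) and Crls1, the cardiolipin synthase (1.06). Enzymes and carriers of glutathione or thiol chemistry among the examples were Mgst1 (0.77), Mgst3 (0.75), Gstm2 (0.84), Gstt1 (0.66), Gpx4, which reduces lipid peroxides (0.58), and Txn2, the mitochondrial thioredoxin (0.66). Mgst3 had a median log2 level of 7.27 (6.67 to 7.97) at 6 weeks and 8.08 (7.42 to 8.57) at 12 weeks, with overlap. Dcn and Lum, matrix proteoglycans of fibroblasts, and Foxd1 (1.72), Ebf1 (0.58), Bnc2 (0.73) and Prg4 (1.38) were higher as well. Spink8 (1.80), Cabp7 (1.58), Gabra5 (1.33) and Neurod6 (1.61), genes strong in hippocampal or cortical neurons, were among the largest differences. Each of these 4 genes was lowest at 6 weeks in WT array 4 and KO array 2, and without these arrays Neurod6 had a difference of 0.56. Spink8 ranged from 3.95 to 8.58 at 6 weeks and from 7.73 to 9.46 at 12 weeks, with overlap. Adjusted p of the genes named in this paragraph ran from 0.107 to 0.211.

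The myelin genes as a group were lower at 12 weeks, though no member passed. In the mature oligodendrocyte and myelin list 22 genes were tested. All 22 had a lower mean at 12 weeks in WT and in KO, where 27% of all genes were lower in both, and 20 of the 22 had an unadjusted p under 0.05 against 4.86% of all genes. The median difference of the list was -1.19 (-1.61 in WT and -0.81 in KO), against 0.01 for all genes. Mag, myelin-associated glycoprotein, ranged from 8.23 to 10.74 at 6 weeks with a median of 9.49, and from 6.54 to 9.56 at 12 weeks with a median of 8.11. Its difference was -1.69 ± 0.44 (adjusted p = 0.17), the lowest of all genes tested. Ugt8a, which makes the galactolipids of myelin, had -1.52 ± 0.36 (adjusted p = 0.167). Trf, the iron carrier transferrin, had -1.28 ± 0.33 (adjusted p = 0.167) and Cldn11, the tight junction protein of myelin, -1.34 ± 0.36 (adjusted p = 0.176).

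Stages overlapped for every one of these 4 genes, because arrays of 1 group were far apart. Mag was 8.82 and 9.01 in WT arrays 1 and 2 of 6 weeks and 10.71 and 10.74 in arrays 3 and 4. The score of the mature oligodendrocyte and myelin list was 0.90 ± 0.97 in WT and 0.43 ± 0.82 in KO at 6 weeks, and -0.55 ± 0.65 in WT and -0.36 ± 0.63 in KO at 12 weeks (mean ± SD of 4, 3, 5 and 6 arrays). The highest scores, 1.46 and 1.96 in WT arrays 3 and 4 and 1.20 in KO array 2 of 6 weeks, came from the 3 arrays with the lowest neuron scores, and the part of this in the result was not tested. Without WT array 4 and KO array 2 the median of the list was -0.85 (-1.21 in WT, -0.43 in KO), with array weights it was -0.88, and with scores of marker genes of neurons, of neighbouring cortex and hippocampus and of choroid plexus with ependyma as covariates it was -0.82. All 12-week arrays of the first stretch of accessions alone gave -1.43, and those of the second stretch -0.89.

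**Figure D3:**
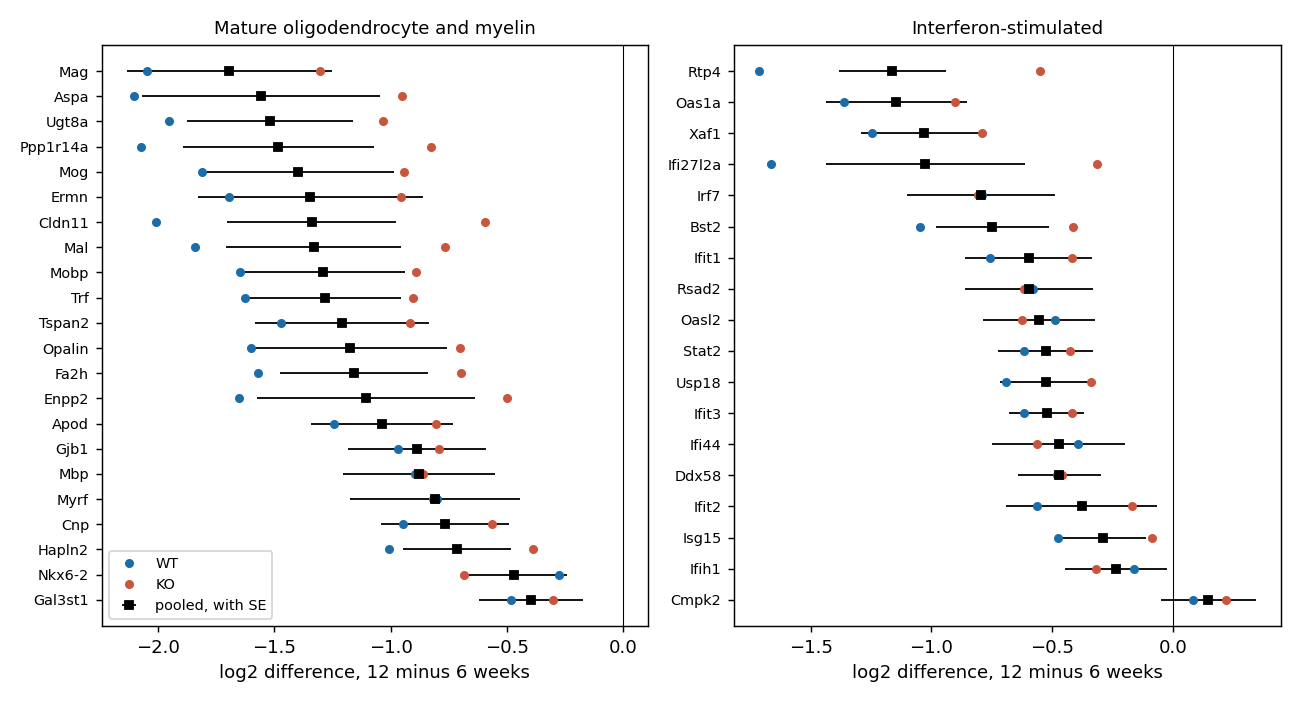
Stage difference (x axis, log2 at 12 minus 6 weeks) of each tested member (y axis) of the myelin list (left) and the interferon-stimulated list (right), pooled with its SE (black square and line) and in WT and KO (coloured points). All 22 myelin genes and 17 of 18 interferon-stimulated genes lie left of 0 in both genotypes, and for Mag the WT value lies at -2.05 and the KO value at -1.30.

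Genes of earlier oligodendrocyte stages had smaller differences. In the list of oligodendrocyte precursor and newly formed oligodendrocyte genes 15 of 18 had a lower mean (48% of all genes) and 4 an unadjusted p under 0.05 (4.86% of all genes), with a median of -0.21. That median was -0.14 without WT array 4 and KO array 2 of 6 weeks and -0.06 with the tissue scores as covariates. The 4 were Gpr17, Olig1 (-0.69 ± 0.17), Olig2 (-0.62 ± 0.20) and Vcan (-0.47 ± 0.20), with adjusted p from 0.167 to 0.372. Olig1 and Olig2 are the transcription factors that set the lineage, and Vcan encodes the proteoglycan versican. In the sphingolipid synthesis list 15 of 17 had a lower mean (48% of all genes) and 5 an unadjusted p under 0.05 (4.86% of all genes). The median of this list was -0.28. Beside Ugt8a these included Fa2h, the fatty acid 2-hydroxylase (-1.16 ± 0.32), Elovl7, a fatty acid elongase (-1.25 ± 0.42, with -2.17 in WT and -0.23 in KO), and Cers2, the ceramide synthase of very long chains (-0.70 ± 0.24). Fa2h and Ugt8a stand in the myelin list too. Without WT array 4 and KO array 2 of 6 weeks the median of the sphingolipid synthesis list was -0.07.

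Most interferon-stimulated genes had lower means at 12 weeks in both genotypes, with no gene past the threshold of the pooled test. Of the 20 genes of the list 18 were tested. Of these, 17 had a lower mean in WT and in KO (27% of all genes), and 13 had an unadjusted p under 0.05 (4.86% of all genes). The median was -0.54 (-0.62 in WT and -0.42 in KO). Xaf1, an interferon-induced regulator of cell death, had a median log2 level of 6.996 (5.92 to 8.28) at 6 weeks and 6.23 (4.97 to 6.85) at 12 weeks, a difference of -1.03 ± 0.26 (adjusted p = 0.167). Oas1a, a sensor of double-stranded RNA, had a median of 5.71 (4.02 to 6.79) and 4.45 (3.61 to 5.99), a difference of -1.15 ± 0.29 (adjusted p = 0.167). Ifit3, an antiviral protein, had a median of 9.20 (8.10 to 10.13) and 8.87 (7.78 to 9.50), a difference of -0.52 ± 0.16 (adjusted p = 0.205). The gene outside the pattern was Cmpk2, a mitochondrial nucleotide kinase, at 0.15 ± 0.20.

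Type I interferon acts on its target genes through a response element with paired GAAA cores. The promoters of 4 genes of this group are shown because these genes were lower together in both genotypes. They are the 250 bases upstream of the annotated start, from RefSeq with build GRCm38.p6, 5′ to 3′ on the strand of the gene. Capitals mark the letters GAAANNGAAA or, where the match is on the opposite strand, their reverse complement.
Oas1a: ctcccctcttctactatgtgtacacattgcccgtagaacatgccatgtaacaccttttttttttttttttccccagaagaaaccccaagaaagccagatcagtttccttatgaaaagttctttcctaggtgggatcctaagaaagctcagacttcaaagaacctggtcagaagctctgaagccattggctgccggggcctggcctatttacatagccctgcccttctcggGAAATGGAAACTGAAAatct
Ifit3: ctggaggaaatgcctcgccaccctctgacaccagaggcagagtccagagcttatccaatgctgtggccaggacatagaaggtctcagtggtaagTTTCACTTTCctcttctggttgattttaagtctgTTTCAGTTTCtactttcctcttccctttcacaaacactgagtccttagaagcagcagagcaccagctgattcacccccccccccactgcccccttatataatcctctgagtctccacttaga
Cxcl10: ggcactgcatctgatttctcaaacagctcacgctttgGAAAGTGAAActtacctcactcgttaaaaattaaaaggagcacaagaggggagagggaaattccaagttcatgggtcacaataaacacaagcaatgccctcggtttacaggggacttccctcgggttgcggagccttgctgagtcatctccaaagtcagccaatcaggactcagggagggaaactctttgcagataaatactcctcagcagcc
Xaf1: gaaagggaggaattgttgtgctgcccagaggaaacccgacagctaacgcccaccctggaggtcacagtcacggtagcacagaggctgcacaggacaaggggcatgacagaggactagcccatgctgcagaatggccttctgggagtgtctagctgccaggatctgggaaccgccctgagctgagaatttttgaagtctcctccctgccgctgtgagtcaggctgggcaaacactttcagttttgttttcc
Oas1a lies at chr5:120907526-120907775 on the minus strand, Ifit3 at chr19:34583279-34583528 on the plus strand, Cxcl10 at chr5:92348890-92349139 on the minus strand and Xaf1 at chr11:72301379-72301628 on the plus strand. Oas1a held 2 matches that overlap each other, starting 20 and 14 bases upstream of the start, Ifit3 held 2 on the opposite strand, starting 156 and 122 bases upstream, Cxcl10 held 1, starting 213 bases upstream, and Xaf1 held none in this window. Of the list, 15 genes had an entry in the table, and 7 of them (46.7%) held the letters on either strand, against 936 of the 27025 genes of the whole table (3.46%). A match describes the letters and is no measured binding site. Rtp4 and St18 are named only.

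Levels of the interferon-stimulated list also differed between genotypes, which matters for what was pooled. Its score was 0.03 ± 0.39 in WT and 0.69 ± 0.65 in KO at 6 weeks, and -0.73 ± 0.08 in WT and 0.24 ± 0.22 in KO at 12 weeks (mean ± SD of 4, 3, 5 and 6 arrays). The 5 WT arrays of 12 weeks lay between -0.80 and -0.61, under every other array. The KO arrays of 6 weeks had scores of 0.12, 1.39 and 0.55, so KO array 2 raised the mean of its group. The KO arrays of 12 weeks had scores from -0.14 to 0.55 and overlapped those of 6 weeks. For Rtp4 the WT arrays had 6.23, 5.95, 6.73 and 7.03 at 6 weeks and 4.59, 4.49, 5.22, 5.14 and 4.43 at 12 weeks, without overlap. The KO arrays had 7.26, 8.31 and 7.51 at 6 weeks and 6.87 to 7.51 at 12 weeks, with a median of 7.07, and overlapped. Rtp4 passed in WT alone (-1.71, adjusted p = 0.0149) and not in KO (-0.55, adjusted p = 0.665), and the interaction of 1.17 did not pass (adjusted p = 0.836). Without WT array 4 and KO array 2 of 6 weeks the median of the interferon-stimulated list was -0.33, and with the tissue scores as covariates it was -0.38.

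In the chemokine and cytokine list 14 of 17 tested genes had a lower mean (48% of all genes). An unadjusted p under 0.05 was reached by 3 (4.86% of all genes), and the median was -0.35. Cxcl10 had a median log2 level of 6.58 (5.71 to 8.23) at 6 weeks and 5.60 (3.71 to 6.74) at 12 weeks. Its difference was -1.82 in WT, where the arrays of the stages did not overlap, and -0.94 in KO, where they did. Ccl5, a T cell attractant, had -0.59 ± 0.16 (adjusted p = 0.176), Il33, an alarmin strong in oligodendrocytes and astrocytes, -1.17 ± 0.44 (adjusted p = 0.314), and Ccl2, a monocyte attractant, -0.56 ± 0.28 (adjusted p = 0.466). The median of the chemokine and cytokine list was -0.14 without KO array 2 of 6 weeks and -0.03 with the tissue scores as covariates. In the complement list 10 of 13 had a lower mean (48% of all genes), 8 of them in both genotypes (27%). C3, the central complement protein, had a median of 7.37 (5.62 to 8.23) at 6 weeks and 6.24 (5.16 to 6.50) at 12 weeks, a difference of -1.17 ± 0.29 (adjusted p = 0.167), with -1.87 in WT and -0.39 in KO. C4b had -0.51 ± 0.23, Cfb -0.32 ± 0.18 and C2 0.26 ± 0.20. The median of the complement list was -0.19, with -0.39 in WT and -0.03 in KO. Without KO array 2 of 6 weeks the pooled median of this list was -0.03.

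Immediate early genes, which cells switch on within minutes of a stimulus, had lower means for 15 of 23 members (48% of all genes), 7 with an unadjusted p under 0.05 (4.86% of all genes). In both genotypes 6 were lower and 7 higher, against 27% and 30.4% of all genes. The median was -0.19, with 0.11 in WT and -0.38 in KO. The score of KO array 2 of 6 weeks (0.91) was the highest of the 18, and without it the median of the immediate early list was -0.05. Jun was the one of the 4 genes with the smallest p whose differences in the genotypes were of like size. Fos, its partner in AP-1, had -0.98 ± 0.28 (adjusted p = 0.198), with -0.27 in WT and -1.76 in KO. Dusp1, a phosphatase that switches off MAP kinases, had -1.01 ± 0.38 (adjusted p = 0.313), with -0.12 in WT and -1.998 in KO. Btg2, an inhibitor of cell division, had -0.87 ± 0.21 (adjusted p = 0.167), with -0.51 in WT and -1.26 in KO. No interaction of the 4 genes passed. Zfp36 passed in KO alone (-1.51, adjusted p = 0.00173), with -0.41 in WT.

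Nuclear-encoded genes of mitochondria had higher means at 12 weeks, with no gene past the threshold. In the respiratory chain list 19 of 20 had a higher mean, 15 in both genotypes against 30.4% of all genes, and 7 an unadjusted p under 0.05 against 6.32%. The median was 0.21, with 0.07 in WT and 0.39 in KO. Ndufa4, a subunit of cytochrome oxidase, had a median log2 level of 10.83 (10.12 to 11.26) at 6 weeks and 11.21 (10.83 to 11.50) at 12 weeks, a difference of 0.49 ± 0.15 (adjusted p = 0.211). Cox7a2, of the same complex, had 0.41 ± 0.13 (adjusted p = 0.249), Sdhb of complex II 0.39 ± 0.15 (adjusted p = 0.33) and Uqcrc2 of complex III 0.30 ± 0.12 (adjusted p = 0.344). Whole gene families were drawn up after the values were seen, and their counts stand against 52% of all genes with a higher mean. Means were higher for 41 of 44 genes with Nduf symbols, chiefly of NADH dehydrogenase and with Ndufa4 among them (median 0.22). The same held for 16 of 17 ATP synthase genes (Atp5, 0.15). It also held for 41 of 49 genes of the large (Mrpl, 0.18) and 26 of 28 of the small (Mrps, 0.15) mitochondrial ribosomal subunit. Means were also higher for 36 of 39 proteasome genes (Psma to Psmd, 0.18), 31 of 38 genes of the large cytosolic ribosomal subunit (Rpl, 0.11), 13 of 17 Cox genes (0.09), 10 of 14 Timm genes of mitochondrial import (0.11) and 13 of 20 glutathione transferase genes (0.07). No gene of these families passed. Higher in both genotypes were 30 Nduf, 13 Atp5, 26 Mrpl and 20 Mrps genes, against 30.4% of all genes. Medians in WT and KO were 0.14 and 0.32 for Nduf and 0.06 and 0.27 for Atp5. For Mrpl they were 0.03 and 0.34, and for Mrps 0.10 and 0.28. For Rpl the WT median was the higher one, at 0.13 against 0.08 in KO.

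Gene span differed between the genes of smallest p in each direction. The 100 genes with the smallest p among those higher at 12 weeks had a median span in the genome of 12.6 kb and a median of 6 probe sets, and the 100 among those lower had 36.6 kb and 12.5 probe sets, against 20.7 kb and 9 for all genes tested. Over the 16245 genes with a span the Spearman rho of stage difference and span was -0.06 (-0.08 in WT and -0.01 in KO), across genes. The fifth of genes with the shortest spans had a median difference of 0.03 and the fifth with the longest -0.001, and in KO these were 0.02 and 0.01. These splits were made after the values were seen, and their part in the result was not tested.

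**Figure D4:**
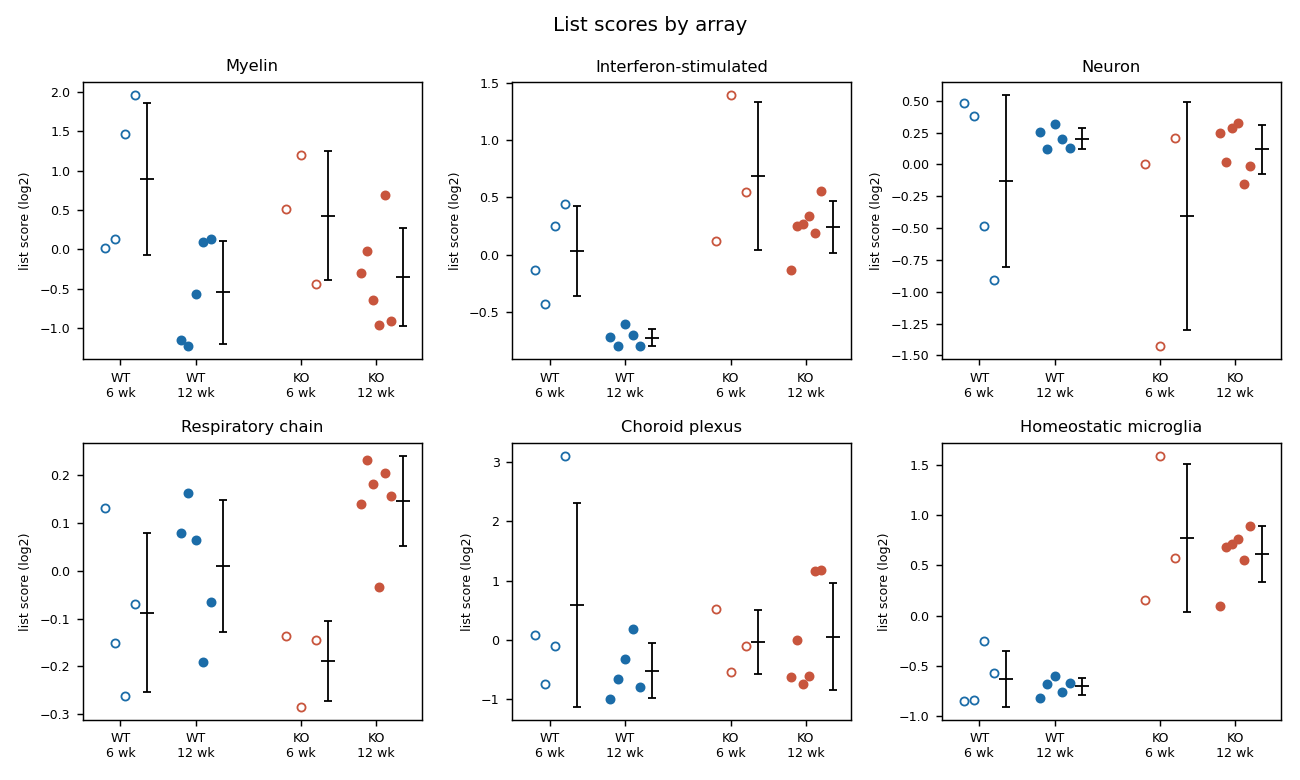
Scores (y axis, mean over members of log2 levels centred on each gene's mean) of 6 gene lists by group (x axis), with 1 point per array and bars for the group mean and SD. Myelin scores are highest in 2 WT arrays (1.46 and 1.96) and 1 KO array (1.20) of 6 weeks, whose neuron scores are the lowest, and interferon-stimulated scores are lowest in the 5 WT arrays of 12 weeks.

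Neuronal genes had higher means at 12 weeks in 16 of 17 members of the neuron list (52% of all genes). Of the 17, 14 were higher in both genotypes (30.4% of all genes), and 5 had an unadjusted p under 0.05 (6.32%). The median was 0.47 (0.38 in WT and 0.56 in KO). Stmn2, a tubulin regulator of axons, had a median log2 level of 7.78 (6.78 to 8.65) at 6 weeks and 8.47 (8.09 to 8.77) at 12 weeks, a difference of 0.74 ± 0.19 (adjusted p = 0.167). Gad1, which makes GABA, had 0.63 ± 0.19, Slc17a7, the vesicular glutamate transporter of cortical neurons, 0.82 ± 0.34, and Syp, the vesicle protein synaptophysin, 0.62 ± 0.29. The arrays of 6 weeks were uneven, with neuron scores of 0.49 and 0.38 in WT arrays 1 and 2 against -0.48 and -0.91 in WT arrays 3 and 4. At 12 weeks the scores lay between 0.12 and 0.32 in WT and between -0.16 and 0.32 in KO. Without WT array 4 and KO array 2 of 6 weeks the median of the neuron list was 0.01 (0.05 in WT and -0.05 in KO). In the same fit Stmn2 had 0.48, Gad1 0.34, Slc17a7 0.16 and Syp 0.05, so the median of the list, Slc17a7 and Syp rest on those 2 arrays, and Stmn2 and Gad1 do so in part.

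Markers of tissue next to the corpus callosum bear on the same arrays. Neurod6, a transcription factor of cortical and hippocampal excitatory neurons, was 10.14, 9.81, 9.17 and 6.03 in the WT arrays and 9.76, 5.94 and 9.29 in the KO arrays of 6 weeks, against 9.72 to 10.55 in the 11 arrays of 12 weeks. The low values of 6.03 and 5.94 came from WT array 4 and KO array 2. In the neighbouring cortex and hippocampus list 13 of 19 had a higher mean (52% of all genes), 3 at an unadjusted p under 0.05 (6.32%). The median of this list was 0.14, and -0.19 without these 2 arrays. Prox1, strong in granule cells of the dentate gyrus, went the other way (-1.18 ± 0.29, adjusted p = 0.167), passed in WT alone (-2.07, adjusted p = 0.012) and had -0.19 in KO. Wfs1 had 0.67 ± 0.21 and Rorb 0.47 ± 0.18, and Rorb was at -0.005 with the brightest probe set. In the list of inhibitory neuron subtype and neuropeptide genes 11 of 14 had a higher mean (52% of all genes). An unadjusted p under 0.05 was reached by 5 (6.32% of all genes), and the median was 0.28. Tac1, the precursor of substance P, had 1.07 ± 0.31, Pvalb, a calcium buffer of fast-spiking interneurons, 0.79 ± 0.25, Vip 0.67 ± 0.19, with 1.18 in WT and 0.11 in KO, and Npy 0.47 ± 0.18. Their adjusted p ran from 0.198 to 0.33.

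Choroid plexus and ependyma genes did not shift the same way in both genotypes. The choroid plexus list had a median of -0.46 over 14 genes, with -1.05 in WT and 0.09 in KO, and the motile cilia and ependyma list 0.10 over 18 genes, with -0.47 in WT and 0.82 in KO. Ttr, transthyretin of the choroid plexus, ranged from 10.81 to 12.98 at 6 weeks and from 8.12 to 12.71 at 12 weeks, a difference of -1.33 ± 0.57 (adjusted p = 0.377). Kcne2 had -0.45 ± 0.21, F5 -0.92 ± 0.60 and Aqp1 -0.38 ± 0.25. Without WT array 4 of 6 weeks the choroid plexus median was -0.08 and that of the motile cilia and ependyma list 0.48.

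The fibroblast and collagen matrix list was mixed, with higher means for 12 of 17 (52% of all genes) and a median of 0.07. Dcn, the collagen-binding proteoglycan decorin, had 4.43 to 7.56 at 6 weeks with a median of 5.76, and 5.78 to 10.05 at 12 weeks with a median of 7.60, a difference of 1.63 ± 0.43 (adjusted p = 0.17). Lum, lumican, went from 3.36 (2.66 to 4.48) to 5.22 (3.39 to 7.63), a difference of 1.60 ± 0.42 (adjusted p = 0.17). Both genes overlapped between stages, and both were similar in WT (1.48 and 1.58) and KO (1.78 and 1.62). Col3a1, a fibrillar collagen, had 0.38 ± 0.14, and -0.09 with the brightest probe set, and Postn, the matrix protein periostin, had -0.81 ± 0.37 (adjusted p = 0.42).

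The microglial and pan-myeloid lists had medians of -0.13 to -0.09, and the border macrophage and monocyte list had 0.30 (0.24 in WT and 0.01 in KO). Of its 9 tested genes 6 had a higher mean (52% of all genes) and 2 an unadjusted p under 0.05 (6.32%). In both genotypes 4 of the 9 were higher and 3 lower, against 30.4% and 27% of all genes. The homeostatic microglia list had a median of -0.13, with 10 of 18 lower (48% of all genes) and 1 at an unadjusted p under 0.05 (4.86%). The disease-associated microglia list, a state that depends on Trem2, had -0.09, with 21 of 30 lower and 2 at an unadjusted p under 0.05. The pan-myeloid list had -0.10, with 11 of 18 lower. The counts of the disease-associated microglia and pan-myeloid lists stand against the same shares of all genes. Csf1, the growth factor of microglia, had -0.63 ± 0.18 (adjusted p = 0.177), Cd9, a tetraspanin shared with oligodendrocytes, -0.51 ± 0.20, Spp1, osteopontin, -0.72 ± 0.36, and the lysosomal protease gene Ctsd -0.28 ± 0.19. Adgrg1 had -0.43 ± 0.20, Tgfbr1 -0.43 ± 0.21, Sparc -0.51 ± 0.25 and Csf1r, the receptor that keeps microglia alive, -0.44 ± 0.23. Without KO array 2 of 6 weeks Adgrg1 had -0.27, Csf1r -0.26 and the homeostatic microglia list a median of 0.03, and without WT array 3 of 6 weeks Tgfbr1 had -0.21. Itgam, the integrin CD11b, had -0.57 ± 0.21, and 0.45 with the brightest probe set, Ptprc, the leukocyte marker CD45, -0.58 ± 0.28, Fcgr1 -0.47 ± 0.25 and Coro1a 0.45 ± 0.18. The genotypes stood apart in the homeostatic microglia list, whose scores were -0.85 to -0.25 in WT and 0.09 to 1.59 in KO over both stages.

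Astrocyte genes had a median of -0.01 over 16 members. Of these 9 had a lower and 7 a higher mean, against 48% and 52% of all genes. In both genotypes 5 were lower and 5 higher, near the 27% and 30.4% of all genes. At an unadjusted p under 0.05 there were 4, each lower, against 4.86% of all genes. Slc4a4, a bicarbonate transporter, had -0.57 ± 0.15 (adjusted p = 0.167), Slc1a2, the main glutamate transporter, -0.46 ± 0.15, Atp1b2 -0.31 ± 0.13 and Aqp4, the water channel of end feet, -0.73 ± 0.34. Aqp4 had -1.41 in WT and 0.02 in KO. In the circadian clock list 12 of 17 had a higher mean (52% of all genes) and 4 an unadjusted p under 0.05 (6.32%). The median of the list was 0.16. Ciart had 0.67 ± 0.24, Cry2, a repressor of the clock, 0.47 ± 0.17, Dbp, an output factor of it, 0.41 ± 0.17 and Nr1d2 0.33 ± 0.15, with adjusted p from 0.285 to 0.405, and their differences in WT and KO were alike in sign. The hour of dissection is not in the labels.

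**Figure D5:**
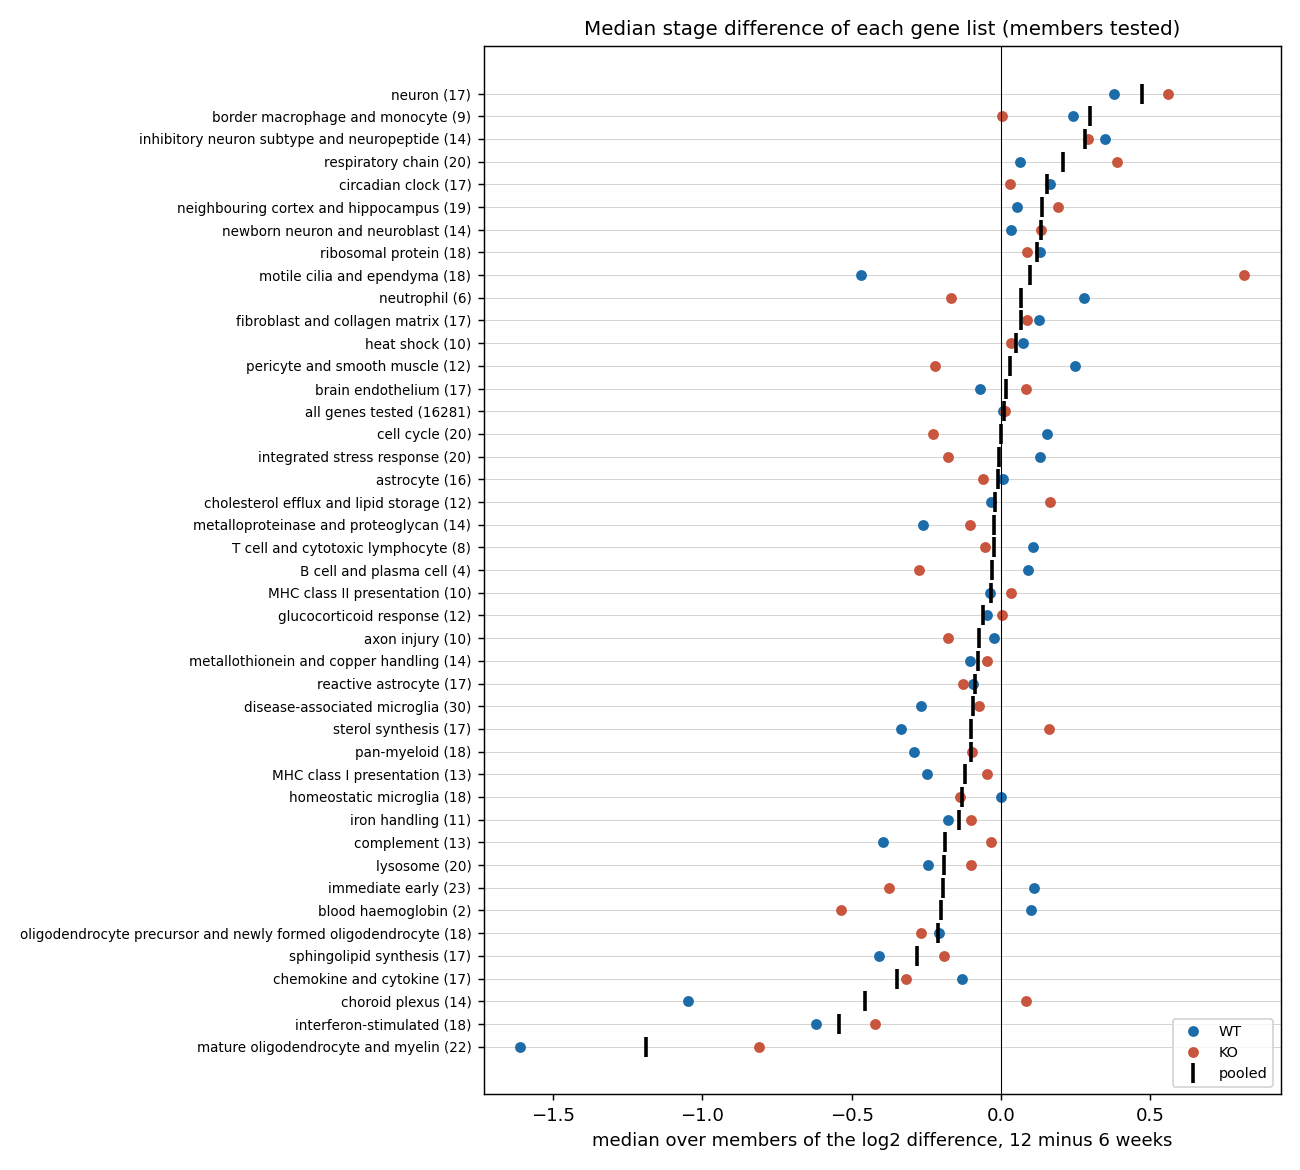
Median stage difference (x axis, log2 at 12 minus 6 weeks) of the tested members of 42 gene lists and of all genes tested (y axis, number of genes in brackets), pooled (black line) and in WT and KO (coloured points). The myelin list has the lowest median (-1.19) and the neuron list the highest (0.47), and the choroid plexus and the motile cilia and ependyma lists have opposite signs in the genotypes.

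The remaining lists had medians between -0.20 and 0.13, and none of their genes passed. In the lysosome list 16 of 20 had a lower mean (median -0.19), against 48% of all genes. In the ribosomal protein list 16 of 18 had a higher one (median 0.12), against 52%. The lists of brain endothelium (0.02), cell cycle (0.001), sterol synthesis (-0.10), integrated stress response (-0.01) and metallothionein and copper handling genes (-0.08) lay near the median of all genes. In some of these the genotypes had opposite signs: sterol synthesis had -0.33 in WT and 0.16 in KO, cell cycle 0.16 and -0.23, and integrated stress response 0.13 and -0.18.

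Where the genotypes parted, no difference between them passed. The interaction had 0 genes at an adjusted p under 0.05 and 845 at an unadjusted one (5.19%). Its smallest p belonged to Tbc1d8b, which was 4.66 to 5.59 in WT at 6 weeks and 2.92 to 3.91 at 12 weeks, without overlap, and had stage differences of -1.64 in WT and 0.30 in KO, an interaction of 1.94 (adjusted p = 0.412). Rerg (1.97), Rwdd3 (2.30), Scnn1a (1.92) and Zfp882 (1.33) followed, with adjusted p from 0.412 to 0.505. Stage in WT alone passed for 3 genes (0.0184%), Prox1, Rtp4 and Tbc1d8b, and in KO alone for 1 (0.00614%), Zfp36. At an unadjusted p under 0.05 there were 1380 genes in WT (8.48%) and 1219 in KO (7.49%).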

How the data were processed

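The 18 samples were measured on 1-colour arrays after column extraction, whole-transcript amplification and biotin labelling, per the labels' protocols. The deposited log2 values of 241576 probe sets were used as given; their scale was read from the range of 0.732 to 13.674, and the authors' background correction, normalization and summarisation of log2 values are not given in the sources used here. The medians of the arrays lay between 5.26 and 5.41. No gene is called absent, because array background was not used.

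Of the probe sets 212097 carried 1 gene symbol in the platform annotation, 4475 several and 25004 none, and the last 2 kinds were left out. Of 20352 symbols 20299 were current in RefSeq (GRCm38.p6), 2742 of them after an update, and 53 were kept as given. A gene's value is the median of its probe sets (median 8 per gene, and 2259 genes on 1). The 20% of genes with the lowest mean (log2 under 3.41) were left out, and 16281 were tested.

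The fit used limma 3.58.1 in R 4.3.3, lmFit and eBayes, two-sided, with genotype and stage as terms (15 residual and 5.61 prior degrees of freedom). A model with 4 group means (14 residual degrees of freedom) gave stage in WT, stage in KO and the interaction. Adjusted p is Benjamini-Hochberg over all genes tested.

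Members and gene lists (42 lists, 678 genes) were chosen with earlier results of these data known. The rule named the 15 largest changes each way among genes that passed with the same sign in both genotypes, at least 3 probe sets and a mean at or over the median gene level, or the 5 smallest p where fewer than 5 passed, and then, for each described list, at most 4 members with the smallest p and 5 genes for the interaction. Predicted gene names and genes of the sex chromosomes used to read sex were passed over. Other genes are named in the text as chosen after their values were seen.

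Alternatives were another filter, another normalization, other ways to summarise probe sets, array weights, the spread estimate, replicate number as a block, sex (2 females and 2 males in WT and 1 and 2 in KO at 6 weeks, 2 and 3 in WT and 3 and 3 in KO at 12 weeks, read from Xist and Y-linked genes), tissue scores as covariates, subsets of arrays, thresholds and leaving out each array. The accessions of the 12-week arrays form 2 stretches, WT 1 and 2 with KO 1 to 3, and WT 3 to 5 with KO 4 to 6. On simulated data with 16281 genes the pooled fit recovered 72 of 100 genes changed by a log2 of 1 and 99 of 100 changed by 2, with 10 false calls. Python 3.11.15 (pandas 2.3.3, numpy 2.4.6) prepared the tables and matplotlib 3.10.9 drew the plots.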

Additional observations from a re-analysis of the deposited data

Results flagged for a closer look

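Of 306 group values examined for an array far from the rest of its group, 14 stood out, and chance picks about 1 in 20. KO at 6 weeks, with 3 arrays, was too small a group for the rule and was not examined, so KO array 2 could not be flagged. The array's log2 level is given with the next one in its group. In KO at 12 weeks, Jun was high in array 3 (8.627, next 8.196), Olig2 was low in array 1 (5.482, next 6.164), Sparc was low in array 1 (9.789, next 10.72) and Cfb was low in array 4 (3.821, next 4.663). In WT at 12 weeks, Cox7a2 was high in array 2 (10.7, next 10.214) and Coro1a was high in array 5 (7.531, next 7.094). In WT at 6 weeks, Tgfbr1 was high in array 3 (9.048, next 7.534), Atp1b2 was low in array 1 (10.397, next 10.893) and Rwdd3 was high in array 1 (5.938, next 4.394). In the same group array 4 was high in Aqp1 (6.85, next 4.756) and low in Cry2 (5.36, next 6.227). List scores stood out for the immediate early list in WT array 4 of 6 weeks (-0.396, next 0.018), for the respiratory chain list in KO array 4 of 12 weeks (-0.035, next 0.139) and for the astrocyte list in WT array 1 of 12 weeks (-0.372, next -0.27).

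For Rwdd3 the stage difference was -0.92 in WT and 1.38 in KO, so the genotypes moved opposite ways. The difference between them was 2.299 on the log2 scale, and its interaction test in limma did not pass (adjusted p = 0.412).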

How the results depend on the processing

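The pooled stage comparison gave 2 genes in the chosen setting, 8 with the mean of the probe sets (4 higher, 4 lower), 7 with a trended and robust spread, 4 with tissue scores as covariates (0 shared with the 2), 4 with the genotypes averaged equally, 1 with array weights, 1 (higher) with 12-week arrays of the first stretch of accessions, 0 with those of the second, and 1 at an adjusted p of 0.01. Leaving out 1 array in turn gave 1 to 15 genes, with 15 without KO array 1 of 6 weeks, 7 without WT array 1 and 4 without WT array 4 of 6 weeks, and 1 without WT array 2, WT array 3 or KO array 2 of 6 weeks or WT array 2 or 5 of 12 weeks. The replicate block is given below, and the other alternatives gave 2 or 3.

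Stage in WT gave 3 genes, 5 with the mean of the probe sets, 1 with the brightest probe set, 7 with sex as a covariate, 0 with either stretch, 1 with the 9 WT arrays alone, and 1 to 6 with an array left out. Stage in KO gave 1 gene, 3 with the mean of the probe sets, 3 with the brightest, 0 with tissue scores, without the 2 arrays of lowest weight (WT array 4 and KO array 2 of 6 weeks), with either stretch or with the 9 KO arrays alone, and 1 to 5 with an array left out. The interaction gave 0 genes (845 at an unadjusted p under 0.05 in limma), 2 with tissue scores and 0 with any array left out. The 133 genes of like sign in both genotypes became 206 with the mean of the probe sets, 202 with tissue scores and 72 with the second stretch, and 92 to 191 with an array left out.

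Replicate numbers do not pair the samples: over 22 same-numbered pairs the correlation of deviations had a median of 0.04 (-0.36 to 0.24), 3 were over 0.1, and 5 of 18 arrays correlated best with their own number. With replicate number as a block the counts were 0 pooled, 0 in WT, 2 in KO, 0 for the interaction and 201 of like sign.

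With the brightest probe set 4 genes reversed: Cfb to 0.22, Rorb to -0.005, Col3a1 to -0.085 and Itgam to 0.454. The causes were not tested. The simulated noise was independent between genes, so its rates may not carry over to real arrays.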
